A study of Mus musculus with 20 samples.

Results

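The vacuolar H+-ATPase (V-ATPase) is a proton pump built from a cytosolic V1 sector, which binds and splits ATP, and a membrane V0 sector, which carries protons. Most cells use it to acidify lysosomes and endosomes. In the kidney, intercalated cells of the collecting duct also place it at the cell surface to secrete acid or base, and several subunits have a further isoform made mainly by these cells. The 10 genes described here, of 54532 in the count table, were chosen by name as the V-ATPase subunits with such tissue isoforms. The 5 intercalated-cell genes were Atp6v1b1 (subunit B1), Atp6v1c2 (C2), Atp6v1g3 (G3), Atp6v0a4 (a4) and Atp6v0d2 (d2). The 5 others were Atp6v1b2 (B2), Atp6v1g1 (G1), Atp6v0a1 (a1), Tcirg1 (a3) and Atp6v0d1 (d1). Some of these names are not exclusive: a4 is also known from the proximal tubule, d2 and a3 from osteoclasts and macrophages, and C2 from other epithelia.

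Bulk RNA was sequenced from 10 tumors and 10 normal kidneys in the Cre-less AAV mouse model of clear cell kidney cancer. Kidneys of adult LSL-Cas9/+; Pax8 Cre/+ mice on a C57BL/6 background received an adeno-associated virus (AAV) with sgRNAs for Vhl, Pbrm1, Keap1 and Tsc1. Tumors and normal kidneys came from the same group of 10 mice, so the normal kidneys carry the same Cas9 and Cre alleles, and whether a tumor and a kidney of the same number come from 1 animal is not given in the sources used here. Pax8 drives Cre in renal tubule cells, collecting duct included. Whether the normal kidneys sampled had themselves received the virus is not given in the sources used here.

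Total counts ran from 14737516 to 26679704 per library, and 15354 genes passed the low-count filter. All 10 members passed it, Atp6v1b1, Atp6v1c2, Atp6v1g3 and Atp6v0d2 through their level in normal kidneys. With p-values adjusted over these genes after Benjamini and Hochberg, edgeR's quasi-likelihood test called 47.5% of them at an adjusted p under 0.05, and every adjusted p given here is from this fit unless another is named. In the same test, transcripts of the targeted genes changed by a log2 fold change of -0.49 for Vhl, -0.61 for Tsc1 and 0.83 for Keap1, and Pbrm1, at -0.28, was not called (adjusted p = 0.23). Markers of the proximal tubule were present in every normal kidney, with summed levels of 1770 to 9989 CPM (counts scaled to a common library total). Normal kidney 9, with the lowest scaling factor and fewest genes detected, and tumor 7, with the highest sum of macrophage markers, stood apart in earlier results of these data. Results that rest on them are also given without them.

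Promoter windows are shown for 4 members because their CpG content and motif letters differed. Each holds the 250 bases before the RefSeq transcription start (assembly GRCm38.p6), found for 7 of the 10 members and not for Atp6v1b2, Atp6v0d2 and Atp6v1g1. The first 3 belong to intercalated-cell isoforms and the last to d1. Capitals in the first mark TGTTTAC, the core letters bound by forkhead factors, a family that includes Foxi1, which intercalated cells need to form. The 4 windows lie at chr6:83742767-83743016 on the plus strand, chr6:38124587-38124836 on the minus strand, chr1:138273488-138273737 on the plus strand and chr8:105566065-105566314 on the minus strand.
Atp6v1b1: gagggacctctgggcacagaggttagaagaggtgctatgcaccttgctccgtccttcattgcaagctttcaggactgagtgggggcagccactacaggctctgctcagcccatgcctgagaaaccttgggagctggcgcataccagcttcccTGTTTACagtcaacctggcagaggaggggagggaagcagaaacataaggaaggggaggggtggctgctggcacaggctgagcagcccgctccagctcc
Atp6v0a4: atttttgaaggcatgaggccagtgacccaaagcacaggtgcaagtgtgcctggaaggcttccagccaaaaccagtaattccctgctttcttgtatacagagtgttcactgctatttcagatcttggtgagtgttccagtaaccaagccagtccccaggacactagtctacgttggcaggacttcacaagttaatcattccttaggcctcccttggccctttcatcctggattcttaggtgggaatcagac
Atp6v1g3: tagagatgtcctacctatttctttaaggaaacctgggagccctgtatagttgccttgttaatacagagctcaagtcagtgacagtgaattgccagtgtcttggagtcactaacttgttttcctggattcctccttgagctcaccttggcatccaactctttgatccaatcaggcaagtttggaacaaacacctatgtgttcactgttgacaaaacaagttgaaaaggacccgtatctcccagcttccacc
Atp6v0d1: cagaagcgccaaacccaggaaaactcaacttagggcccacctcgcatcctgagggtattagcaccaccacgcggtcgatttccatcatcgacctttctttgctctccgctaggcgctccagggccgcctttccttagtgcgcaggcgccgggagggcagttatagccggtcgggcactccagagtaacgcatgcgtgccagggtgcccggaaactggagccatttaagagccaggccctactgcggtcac

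The Atp6v1b1 window held 3 CpG dinucleotides and those of Atp6v0a4 and Atp6v1g3 held 1 each. The Atp6v0d1 window held 18, against a median of 6 over 32851 promoter windows of the same length. The split by CpG did not follow the 2 groups of isoforms, since Atp6v1c2 had 15 and Atp6v0a1 had 4. TGTTTAC, searched on both strands, was found in Atp6v1b1 alone among the 7 members with a window, starting 98 bases before the start site, and in 3.17% of all windows. The E-box CACGTG, a core of the letters recognised by the lysosomal gene regulators TFEB and TFE3 among others, was found in none of these 7 and in 6.02% of all windows. Of other V-ATPase subunits with a window, only Atp6v0b, with 2, and Atp6v1a, with 1, held it. These letter matches are descriptions of the windows and say nothing about binding.

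All 5 intercalated-cell isoform genes were lower in tumors than in normal kidneys and all 5 other isoform genes were higher. Over all genes tested, 23.8% were called lower and 23.6% higher. In 4 of the 5 intercalated-cell genes, every tumor lay below every normal kidney, an arrangement found in 4.74% of all genes tested. In 3 of the 5 others, every tumor lay above every normal kidney, against 5.87% of all genes. The 4 intercalated-cell genes passed the low-count filter through their level in normal kidneys, and all members were chosen with earlier results known. These shares are therefore descriptions and no independent support. In tissue RNA, fewer cells of a type and less RNA per cell cannot be told apart.

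**Figure D1:**
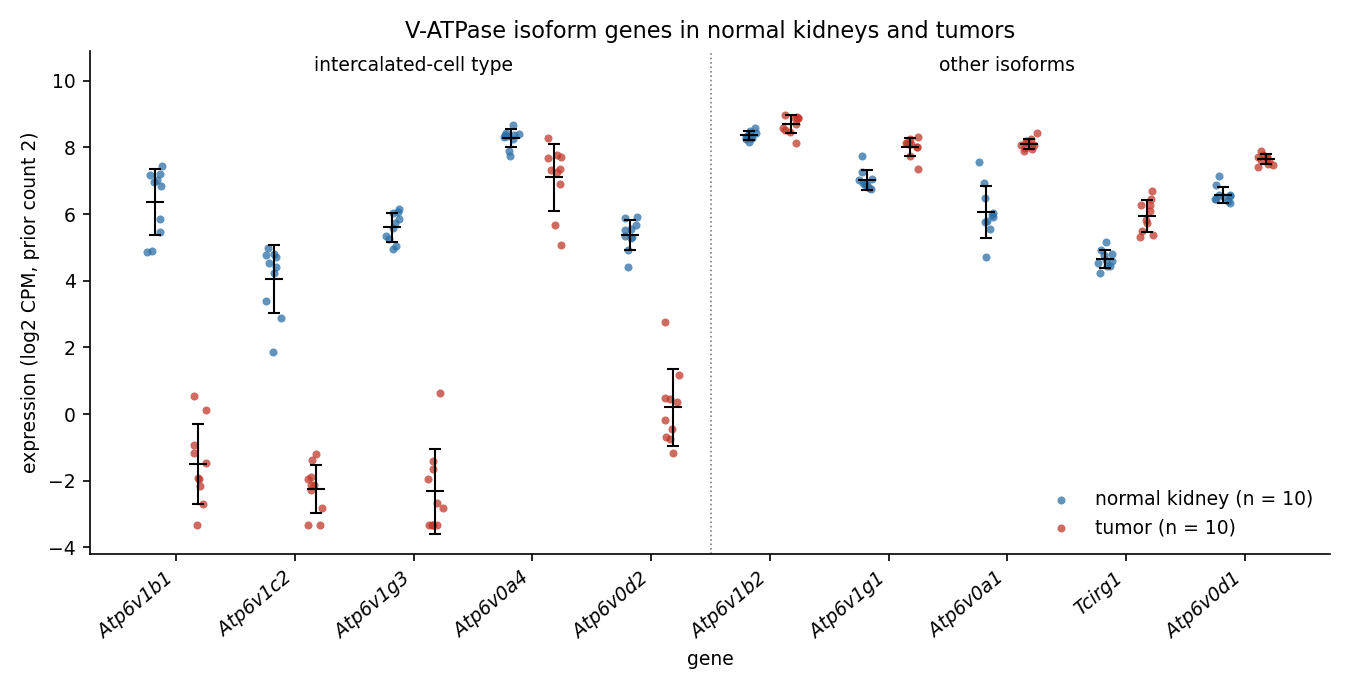
Expression (log2 CPM with a prior count of 2, vertical axis) of the 10 isoform genes in 10 normal kidneys (blue) and 10 tumors (red), 1 point per library, with the mean and SD of each group in black. Atp6v1b1, Atp6v1c2, Atp6v1g3 and Atp6v0d2 do not overlap between the groups, Atp6v0a4 does, and the 5 other isoforms lie higher in tumors with overlap for Atp6v1b2 and Atp6v1g1.

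Subunit B is the part of V1 that forms the ATP-binding ring with subunit A. Atp6v1b1 (ENSMUSG00000006269, chromosome 6, 83742990 to 83758855, mm10) had 29.1, 119 and 175 CPM as the lowest, median and highest normal kidney, and 0, 0.213 and 1.34 CPM in tumors. Every tumor lay far below every kidney. The fall was 256-fold (log2 fold change -8.00 ± 0.59 SE, adjusted p = 5.7e-10). The highest tumors were 1 and 7 with 24 and 23 counts, and in tumor 4 no count was found, which allows up to 0.129 CPM.

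Its partner Atp6v1b2, the B isoform of lysosomes in most cells, had 289, 321 and 386 CPM in normal kidneys and 279, 442 and 502 CPM in tumors. The groups overlapped, with 6 of 10 tumors above every kidney and tumor 7 below every kidney. The difference was 1.27-fold (log2 0.35 ± 0.11 SE, adjusted p = 0.0119). With the upper-quartile scaling it was 0.23 (adjusted p = 0.068) and with library totals 0.21 (adjusted p = 0.116), so its call depended on the scaling.

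Subunit C links the stator of V1 to V0 and is released when the pump comes apart. Atp6v1c2 (ENSMUSG00000020566, chromosome 12) had 3.54, 22.0 and 31.4 CPM in normal kidneys, and 0, 0.129 and 0.336 CPM in tumors. No tumor had more than 6 counts, and the groups were apart even though the kidneys themselves spread widely. The log2 fold change was -7.13 ± 0.51 SE (adjusted p = 3.5e-10). Atp6v1c1, the C isoform of most tissues, rose 1.98-fold (log2 0.99 ± 0.17 SE, adjusted p = 6.9e-05), with 9 of 10 tumors above every kidney.

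Subunit G is another part of the stator. Atp6v1g3 (ENSMUSG00000026394, chromosome 1) had 30.7, 50.4 and 71.7 CPM in normal kidneys, and 0, 0.0489 and 1.45 CPM in tumors. Tumors 4, 5, 6 and 10 had no count, which allows up to 0.129, 0.166, 0.161 and 0.13 CPM, and tumor 7 had 34 counts. The groups were far apart with or without tumor 7. The log2 fold change was -7.73 ± 0.62 SE (adjusted p = 1.8e-09) with all libraries and -9.22 without tumor 7.

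Atp6v1g1, the G isoform of most tissues, had 108, 122 and 212 CPM in normal kidneys and 165, 274 and 316 CPM in tumors. Here 9 of 10 tumors lay above every kidney, with tumor 7 the lowest tumor and normal kidney 9 the highest kidney. The rise was 1.98-fold (log2 0.98 ± 0.13 SE, adjusted p = 3.6e-06). Atp6v1g2, the G isoform known from neurons, was low in both groups, with medians of 1.44 CPM in tumors and 2.90 CPM in kidneys, and fell by 0.95 on the log2 scale (adjusted p = 0.0024).

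Subunit d joins the V0 ring to the central stalk. Atp6v0d2 (ENSMUSG00000028238, chromosome 4) had 21.4, 43.2 and 59.9 CPM in normal kidneys and 0.344, 0.981 and 6.66 CPM in tumors. Tumor 7 was the highest with 156 counts and the next, tumor 2, had 2.17 CPM, both below the lowest kidney. The log2 fold change was -4.80 ± 0.46 SE (adjusted p = 2.8e-08), and -5.50 without tumor 7.

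Atp6v0d1, the d isoform of most tissues, had 80.1, 92.3 and 140 CPM in normal kidneys and 170, 201 and 238 CPM in tumors. Every tumor lay above every kidney. The rise was 2.07-fold (log2 1.05 ± 0.11 SE, adjusted p = 5.9e-08).

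Subunit a lets protons reach the V0 ring and directs the pump to a membrane. Atp6v0a4 (ENSMUSG00000038600, chromosome 6, 38048483 to 38124586) had 216, 330 and 412 CPM in normal kidneys and 33.4, 162 and 313 CPM in tumors. The groups overlapped, with 8 of 10 tumors below every kidney and tumors 4 and 5 within the kidneys' range. The fall was 1.95-fold (log2 -0.97 ± 0.28 SE, adjusted p = 0.0071). Its size differed from that of the other 4 intercalated-cell genes, whose log2 fold changes ran from -4.80 to -8.00, though no test was made of this difference between genes.

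Atp6v0a1, the a isoform best known from neurons and endosomes, had 26.3, 61.7 and 190 CPM in normal kidneys and 237, 269 and 343 CPM in tumors. All tumors lay above all kidneys, and the tumors were close together while the kidneys spread widely. The rise was 3.58-fold (log2 1.84 ± 0.25 SE, adjusted p = 4.1e-06), the largest rise among the 10 members.

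Tcirg1, the a3 isoform of lysosomes and of the osteoclast border, had 18.6, 24.3 and 35.5 CPM in normal kidneys and 39.5, 62.4 and 102 CPM in tumors. The groups did not overlap, and tumor 7 was the highest. The rise was 2.54-fold (log2 1.35 ± 0.17 SE, adjusted p = 1.6e-06). Atp6v0a2, the a isoform of the Golgi, was called too, with a 1.83-fold rise (log2 0.87 ± 0.12 SE, adjusted p = 5.7e-06).

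Levels of different genes can be set side by side only per length, so CPM were divided by the gene length in kilobases given in the table. On this scale the order in normal kidneys was led by Atp6v1g1 at 117 ± 27.4 CPM per kilobase (SD, n = 10). Atp6v0a4 (63.9 ± 11.1), Atp6v1b2 (62.1 ± 5.47) and Atp6v0d1 (54.1 ± 10.2) followed, with overlapping spreads. Within libraries, Atp6v1b2 was above Atp6v0d1 in every kidney but kidney 9, which had 57.6 against 78.3. Atp6v1g3 (26.7 ± 7.70), Atp6v1b1 (22.6 ± 12.3), Atp6v0d2 (15.99 ± 4.44), Atp6v0a1 (11.8 ± 7.17) and Atp6v1c2 (9.03 ± 4.38) formed a run in which each neighbour lay within the spread of the next, and Tcirg1 was last at 5.69 ± 1.10.

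In tumors the order was Atp6v1g1 at 231 ± 38.5, Atp6v0d1 at 112 ± 11.8 and Atp6v1b2 at 79.0 ± 13.7 CPM per kilobase. Atp6v0a1 (42.1 ± 4.75) and Atp6v0a4 (32.7 ± 16.6) lay within their spread of each other, and Tcirg1 was at 14.5 ± 4.77. Atp6v0d2 (0.566 ± 0.692), Atp6v1g3 (0.117 ± 0.235), Atp6v1b1 (0.0879 ± 0.0997) and Atp6v1c2 (0.0624 ± 0.0511) were last. Library by library, Atp6v0d2 was above Atp6v1g3 and Atp6v1c2 in every tumor and above Atp6v1b1 in every tumor but tumor 1. Atp6v1g3, Atp6v1b1 and Atp6v1c2 lay within their spread of each other. Atp6v0a4 was the only intercalated-cell isoform among the 6 highest members in tumors.

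The share of each subunit's per-kilobase level that came from the intercalated-cell isoform was lower in every tumor than in every normal kidney, for all 5 subunits. B1 made up a median of 30.4% of subunit B in normal kidneys, with a range of 8.48% to 40.5%, and 0.0591% in tumors. C2 made up 35.7% of subunit C against 0.175%, G3 16.7% of G1 plus G3 against 0.0119%, and d2 23.5% of subunit d against 0.321%. These 4 tumor shares had maxima of 0.425%, 0.483%, 0.528% and 2.53%, all but that of C2 in tumor 7.

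**Figure D2:**
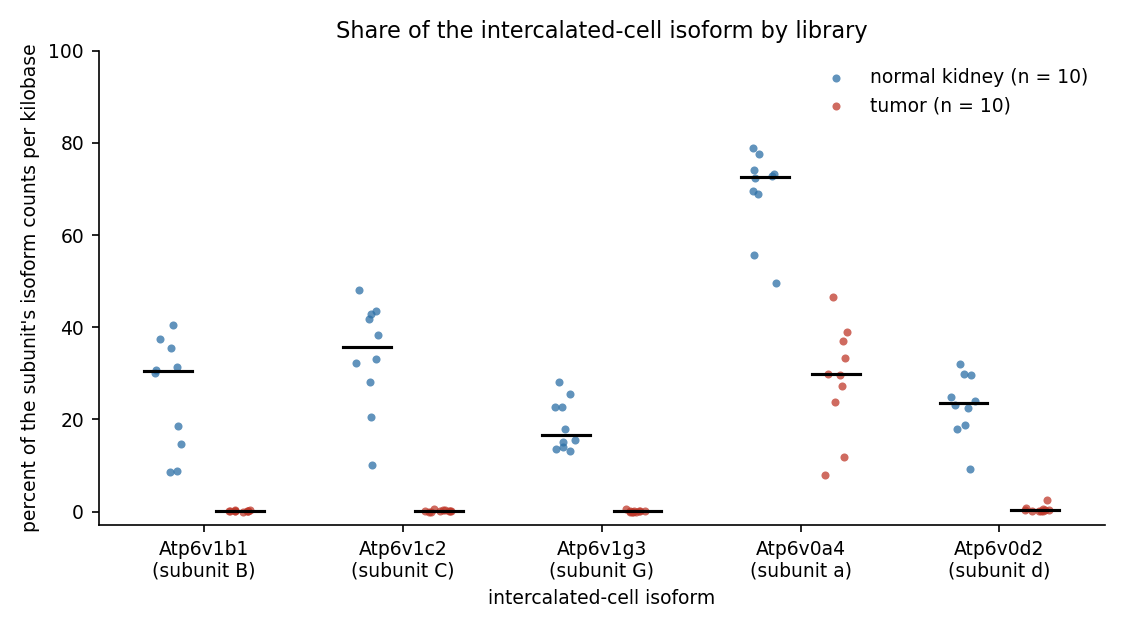
Share (percent, vertical axis) of each subunit's isoform counts per kilobase that came from the intercalated-cell isoform, 1 point per library, in 10 normal kidneys (blue) and 10 tumors (red), with the median of each group as a black line. The B1, C2, G3 and d2 shares of all tumors lie between 0% and 2.53%, while the a4 share of tumors runs from 8.00% to 46.7%, below the 49.6% of the lowest normal kidney.

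In subunit a, no single isoform made up the whole level in tumors. The a4 share had a median of 72.6% in normal kidneys (49.6% to 78.8%) and 29.8% in tumors (8.00% to 46.7%). The a1 share had a median of 10.2% in normal kidneys (4.54% to 29.8%) and 37.9% in tumors (33.4% to 53.1%), without overlap. The a3 share went from a median of 6.37% to 12.8% and the a2 share from 11.5% to 18.6%, both with overlap.

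**Figure D3:**
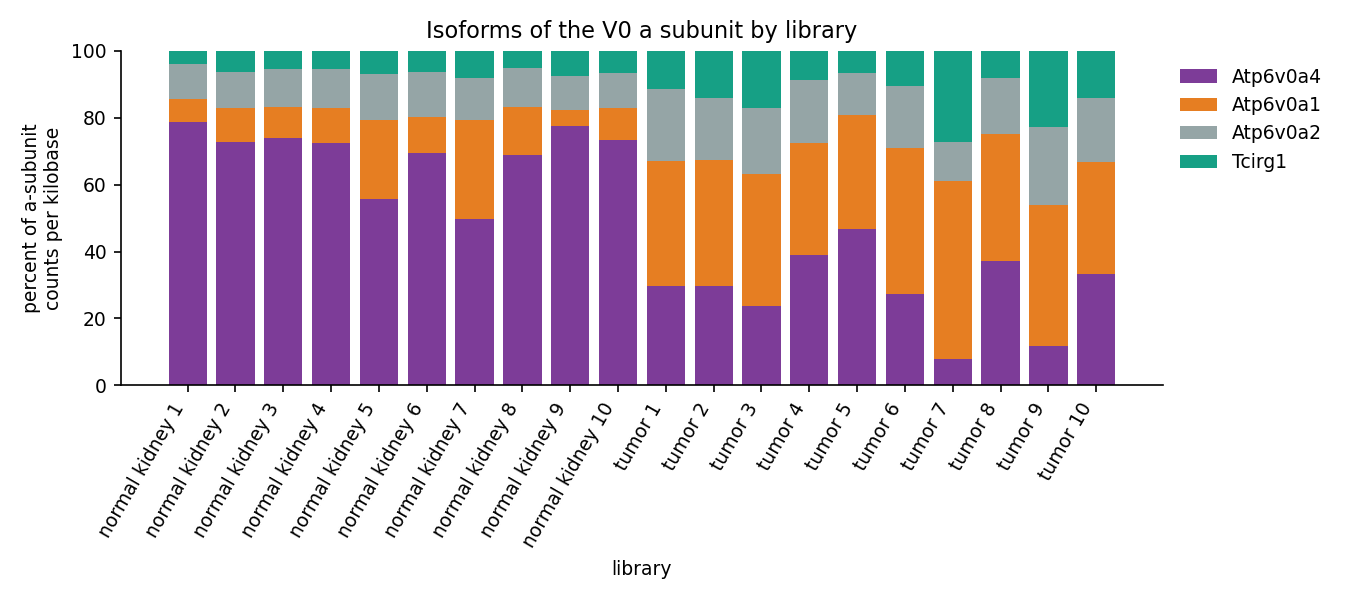
Percent of the summed a-subunit counts per kilobase (vertical axis) that came from each of the 4 a isoforms, as stacked bars for each of the 20 libraries. Atp6v0a4 fills at least 49.6% of every normal kidney's bar and at most 46.7% of every tumor's, with the smallest shares in tumors 7 and 9.

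Summed over isoforms, the per-kilobase level of subunit B ran from 52.8 to 94.8 in tumors and from 69.2 to 98.4 in normal kidneys, a ratio of means of 0.934. The sum for subunit a had a ratio of 1.18 and that for subunit C of 1.27, both with overlapping groups. The sums for subunit d (97.1 to 133 in tumors, 59.4 to 86.2 in kidneys, ratio 1.60) did not overlap. That for subunit G had a ratio of 1.60 with overlap. These sums are descriptions and were not tested.

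The rest of the complex was read from a list of 15 other subunit genes and a list of 11 assembly and regulatory genes. Of the other subunits, 14 were tested, 7 rose, 1 fell and 6 were not called, with a median log2 fold change of 0.45. The median over all genes tested was -0.02, and 23.6% of them were called higher and 23.8% lower. Those that rose, besides Atp6v1c1 and Atp6v0a2, were the proton-carrying ring subunits Atp6v0c (log2 0.87) and Atp6v0b (0.81), the small subunit Atp6v0e2 (1.00) and the accessory subunits Atp6ap1 (1.02) and Atp6ap2 (0.53). Atp6v1a, the catalytic subunit, stood at 0.23 on the log2 scale (adjusted p = 0.263) and Atp6v1h, which controls ATP splitting, 0.20 (adjusted p = 0.0565), neither called. Atp6v1h was called in 6 of 29 alternatives, among them without tumor 7 (0.23, adjusted p = 0.0281), without tumor 8 (0.22, adjusted p = 0.0458) and without normal kidney 7 (0.22, adjusted p = 0.0444). Atp6v1e2, a testis isoform, had at most 2 counts in a tumor and was not tested.

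Calls of some of the remaining subunits depended on the libraries, while Atp6v1f was called in no alternative. With all libraries, Atp6v1d, Atp6v1e1 and Atp6v1f had log2 fold changes of 0.27, 0.17 and -0.20, none of them called. Normal kidney 9 was the library with the highest levels of several of them, with 359 CPM of Atp6v1f against a median of 119 CPM in kidneys. Without it, the log2 fold change of Atp6v1f was 0.07, that of Atp6v1d was 0.39 (adjusted p = 0.0195) and that of Atp6v0e was 0.62 in place of 0.38 (adjusted p = 3.3e-05 in place of 0.117). With tumor 7 and normal kidney 9 both left out, Atp6v1d (0.45, adjusted p = 0.0018), Atp6v1e1 (0.34, adjusted p = 0.0089) and Atp6v1h (0.20, adjusted p = 0.023) were called higher, and Atp6v1a and Atp6v1f were not.

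Of the assembly and regulatory genes, 9 were tested, 5 rose, 0 fell and 4 were not called, with a median log2 fold change of 0.71. Rnasek and Tldc2 were not tested. The share called higher over all genes tested was 23.6%. Ccdc115 (1.06) and Tmem199 (0.83), which help assemble V0 in the endoplasmic reticulum, rose. So did Dmxl2 (1.22) and Wdr7 (1.20), parts of the rabconnectin complex that puts V1 and V0 together, and Oxr1 (0.71), a TLDc protein of the family that binds V1. Vma21, another assembly factor of V0, was at -0.07 (adjusted p = 0.543), and Dmxl1, the paralog of Dmxl2, was at -0.44 (adjusted p = 0.104). Without normal kidney 9, Dmxl1 was at -0.57 (adjusted p = 8.5e-04).

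**Figure D4:**
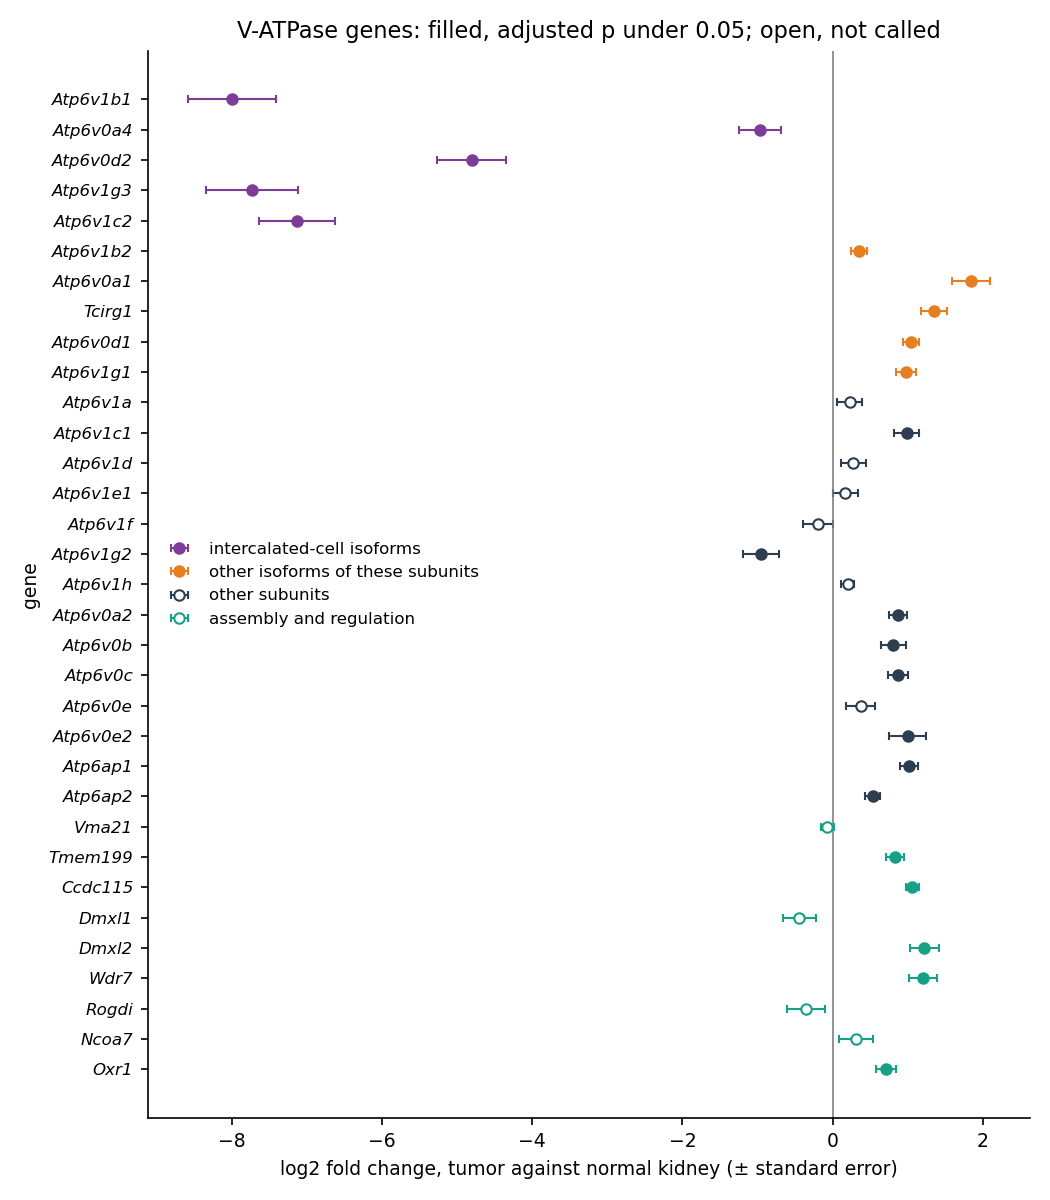
Log2 fold change, tumor against normal kidney, with its standard error (horizontal axis), for the 33 V-ATPase genes tested, colored by list, with filled points for genes called at an adjusted p under 0.05. The 5 intercalated-cell isoforms lie left of 0, the 5 others right of it, and 12 of the other 23 genes are called higher and 1 lower.

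Markers of intercalated cells were mostly lower in tumors, as the intercalated-cell isoforms were. Of 15 markers, 14 were tested, 13 fell, 0 rose and Kit was not called, with a median log2 fold change of -7.43. In 12, every tumor lay below every kidney, against 4.74% of all genes tested, and 23.8% of all genes were called lower. These 12 passed the low-count filter through their level in normal kidneys, so the counts are descriptions and no independent support. Foxi1 fell 140-fold (adjusted p = 2.2e-09), and the anion exchangers Slc26a4 and Slc4a9, of type B cells, fell by 8.85 and 7.61 on the log2 scale. Slc4a1, the exchanger of type A cells, fell by 4.41. The summed marker level ran from 6.16 to 41.7 CPM in tumors, of which Kit alone made up 3.13 to 36.9 CPM, and from 133 to 827 CPM in kidneys. Hmx2, Rhcg, Rhbg, Slc26a7 and Oxgr1 had a median of 0 CPM in tumors. Their part in the result was not tested.

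RNA of principal cells, the other main cell type of the collecting duct, was low as well. Of 8 principal cell markers, all 7 tested fell, with a median of -7.94. Summed levels were 0.301 to 32.3 CPM in tumors against 235 to 1310 CPM in kidneys, with tumor 7 highest of the tumors. These 7 also passed the filter through their level in normal kidneys, so their count is a description too. Of 8 proximal tubule markers, 2 fell, the glucose transporter Slc5a2 and the anion transporter Slc22a8, near the 23.8% of all genes called lower. The other 6 were not called, and the median was -0.37. Summed proximal levels overlapped, from 973 to 9418 CPM in tumors and from 1770 to 9989 CPM in kidneys.

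Genes of lysosomes, the organelle that the other isoforms serve in most cells, were mostly higher in tumors, as those isoforms were. Of 18 lysosomal genes, 17 were called higher and 1 lower, with a median of 1.40, and 23.6% of all genes were called higher. In 10 of the 18, every tumor lay above every kidney, against 5.87% of all genes tested. The protease genes Ctsb and Ctsd rose 7.44-fold and 3.40-fold, and Lamp1, a membrane protein of lysosomes, rose 2.65-fold. Macrophage markers rose in 6 of 10 cases with a median of 1.02. Their sums ran from 428 to 2589 CPM in tumors, with tumor 7 the highest and tumor 9 next at 1267, against 185 to 752 CPM in kidneys. Of the osteoclast markers, Acp5 and Itgb3 rose, Ctsk, Mmp9 and Calcr were not called, and Ocstamp and Dcstamp, which osteoclasts need to fuse, stayed at or under 1.06 and 0.161 CPM in tumors. Their part in the result was not tested.

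Among tumors, the members above 10 CPM that varied most relative to their mean were Atp6v0a4 and Tcirg1. Tumors 7 and 9 had the lowest Atp6v0a4, 33.4 and 50.4 CPM, where the other 8 ran from 120 to 313. The same tumors had the highest Tcirg1, 102 and 86.8 CPM, against 39.5 to 77.9 in the others, and the highest macrophage sums. Tumor 5, with the highest Atp6v0a4, had the lowest Tcirg1. Proximal tubule sums were lowest in tumor 7 at 973 CPM and next in tumor 8 at 2997 CPM, and tumor 8 had 209 CPM of Atp6v0a4.

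Among normal kidneys the intercalated-cell isoforms did not move as 1 group. Atp6v1b1 was low in kidneys 5, 7, 8 and 9, at 29.5, 29.1, 44.3 and 57.8 CPM, where the other 6 ran from 113 to 175. Atp6v1c2 was low in kidneys 5, 7 and 8, at 10.4, 3.54 and 7.27 CPM, and kidney 9, at 21.0, lay among the others (18.6 to 31.4). Atp6v1g3 in kidneys 5, 7, 8 and 9 was 52.9, 40.6, 30.7 and 64.9 CPM, so kidney 8 was the lowest of all 10 and the other 3 lay within the range of the remaining 6 (33.2 to 71.7).

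Markers of the cells divided in the same kidneys. Slc4a1 was 10.2, 1.94 and 7.32 CPM in kidneys 5, 7 and 8 and from 30.8 to 82.2 in the other 7. Rhcg, an ammonia transporter, was 19.2, 5.84 and 31.5 CPM there and at least 90.4 in the other 7. Foxi1 did not follow, at 54.7, 14.0 and 25.4 CPM against 10.5 to 42.0 in the other 7. Slc4a9, at 82.2, 23.6 and 64.2 CPM, lay within the range of the other 7, which was 21.4 to 96.2. Further markers were low in kidney 9 as well, as Atp6v1b1 was. Slc26a4 was 28.5, 52.2, 24.9 and 6.10 CPM in kidneys 5, 7, 8 and 9 and at least 86.4 in every other kidney. Insrr, Hmx2, Oxgr1, Kit, Rhbg, Slc26a7 and Hepacam2 were also lower in these kidneys than in every other, though Kit, Rhbg, Slc26a7 and Hepacam2 only narrowly. Aqp6, Dmrt2 and Clnk overlapped. Proximal tubule sums were also low in kidneys 5, 7 and 8, at 1770 to 3122 CPM, and in kidney 9, at 4206 CPM. The other kidneys ran from 7222 to 9989 CPM, so the difference was not limited to collecting duct genes. Principal cell sums were lowest in kidneys 5, 7 and 8, at 235 to 347 CPM, and highest in kidney 9, at 1310 CPM.

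**Figure D5:**
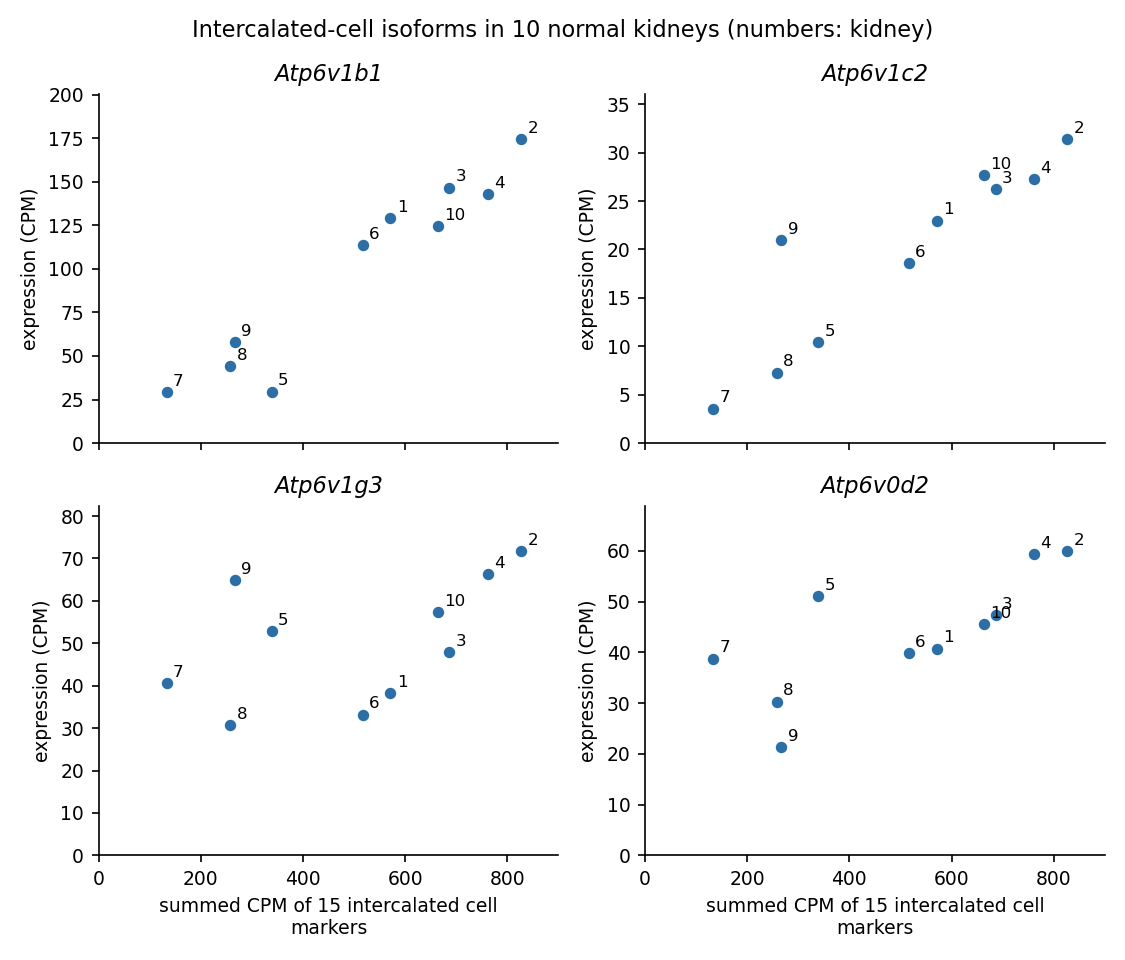
Expression (CPM, vertical axes from 0) of 4 intercalated-cell isoforms in the 10 normal kidneys against the summed CPM of 15 intercalated cell markers (horizontal axis), each point numbered by kidney. Kidneys 5, 7, 8 and 9 have marker sums of 339, 133, 258 and 267 CPM and low Atp6v1b1. Their Atp6v1g3 lies within the range of the other 6 in kidneys 5, 7 and 9 and just below it in kidney 8.

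Kidneys 7 and 5 had the highest Atp6v0a1, 190 and 121 CPM, and kidney 9 the lowest, 26.3 CPM. The a4 share was lowest in kidneys 7 and 5, at 49.6% and 55.6%, and 77.6% in kidney 9. Kidney 9 also had the highest Atp6v0d1 and Atp6v1g1 and the lowest Atp6v0d2, 21.4 CPM, so its d2 share was the lowest of the kidneys at 9.13%.

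As a description of likeness, the genes with the highest Pearson correlation of log2 CPM with each member were found over the 10 kidneys and over the 10 tumors, among protein-coding genes with at least 5 CPM. Over kidneys, Atp6v1c2 was most like Slc4a1 (r = 0.993 over 10 libraries). Next, at 0.981 each, came Zscan2 and Atp4a, the latter the catalytic subunit of another proton pump, the H+/K+-ATPase. Atp6v1b1 was most like Kl (0.986), the gene of the distal tubule protein Klotho, and Atp6v1g3 most like Spink8 (0.904). Atp6v1b1 also correlated with the summed proximal tubule markers (0.955) and with the summed intercalated cell markers (0.913). Over tumors, Atp6v0a4 was most like Dgat2 (0.991), which makes triglycerides, and Tcirg1 most like Pola2 (0.977). With 10 libraries and 10995 genes compared over kidneys, high values arise in many genes, and libraries share their tissue makeup, so no p was attached.

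Counts of 4 members could include reads of overlapping genes, since the use of strand in counting is not given in the sources used here. Atp6v1c2 shares 50 bases with Pdia6 on the opposite strand, which had a mean of 5044 counts in tumors where Atp6v1c2 had 2.7. Atp6v0a4 shares 1413 bases with D630045J12Rik on the same strand (means of 1758 counts in tumors and 1487 in kidneys) and 6555 bases with Tmem213 on the other (3.4 and 824 counts). Atp6v1b2 shares 590 bases with Slc18a1 on the opposite strand, and Atp6v0a1 holds the miRNA gene Mir6928, with under 1 count per library on average. Transcripts of isoforms of 1 subunit shared 0 stretches of 31 bases in all 7 pairs checked.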

How the data were processed

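Counts of 10 tumors and 10 normal kidneys were used. RNA was extracted with Trizol from frozen pulverized tissue, and a sequencing company made poly(A)-selected libraries, sequenced them as read pairs and counted reads per gene. The authors deposited these raw counts without normalization, with gene lengths and coordinates (mm10, per the submitters' processing notes). Aligner, counter and use of strand are not given in the sources used here. Groups came from the sample labels, and 0 sample columns were left unused.

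Counts were scaled with TMM factors of edgeR 4.0.16 (R 4.3.3), filtered at a count minimum of 10, and compared by edgeR's quasi-likelihood test over all 20 libraries without covariates. The Benjamini-Hochberg adjustment ran over the 15354 genes that passed, and genes were called at an adjusted p under 0.05. P-values measure the spread between these libraries, and the 20 libraries came from 10 mice, without a statement of which mouse gave which library. Each standard error (SE) of a log2 fold change was derived from the test, as its absolute value divided by the square root of the F statistic. It was not estimated from the fitted coefficient. Library values are CPM, or log2 CPM with a prior count of 2. A gene without counts could be present at up to 3 counts, a limit that covers counting error only. The scripts were tested on simulated counts. Isoform shares used counts per kilobase of gene length.

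The members and gene lists were chosen with earlier results of these data known. Genes named are the members, the members of the lists, the 4 targeted genes and, for each member with at least 1 CPM, the 3 protein-coding genes of highest correlation in each group. D630045J12Rik, Tmem213, Pdia6, Slc18a1 and Mir6928 were named for overlapping a member. Alternatives were other scalings, no filter, DESeq2 1.42.0, limma-voom (limma 3.58.1) with and without quality weights, a replicate block, and leaving out libraries. The result of 1 list gene is not reported here.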

Additional observations from a re-analysis of the deposited data

Results flagged for a closer look

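Libraries far from the rest of their group were sought among the 10 members in each group of 10 by Dixon's ratio at its 95% critical value, which chance passes in about 1 of 20 groups. Of the 20 groups tested, 2 passed. Atp6v1g3 in tumor 7 was the highest of the tumors at a log2 CPM of 0.63, and the next was -1.40. Tumors without a count shared the lowest value, -3.32, which the prior count sets, so this ratio depends on that setting. The rate of about 1 in 20 cannot be applied to it. Tumor 7 also had the highest Atp6v0d2, principal cell marker sum and macrophage marker sum of the tumors. Atp6v1g1 in normal kidney 9 was the highest of the kidneys at a log2 CPM of 7.73, and the next was 7.28. Their part in these values was not tested.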

How the results depend on the processing

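The direction of all 10 members held under each of the 29 alternatives, and 9 stayed called in all of them, Atp6v1b2 being lost with upper-quartile factors and library totals. Those 2 scalings put the middle of all log2 fold changes at -0.14 and -0.14 in place of -0.02, and the share of higher calls from 49.8% to 39.2% and 38.5%. Leaving out tumor 7 moved Atp6v0d2 and Atp6v1g3 by over 1.5 times (the values stand with those genes), and quality weights gave -5.90 and -9.50, and -9.16 for Atp6v1b1. Over leave-one-out fits, the number of other subunits and assembly factors called lower ran from 1 to 2, with 2 when any tumor or normal kidney 7 or 9 was left out. It was 2 in place of 1 with upper-quartile factors, library totals, no filter, quality weights, and tumor 7 and normal kidney 9 left out together. Without a filter the second gene was Tldc2 (log2 -4.26). In fits without a tumor or normal kidney 7, 24 or 25 of these genes were tested in place of 23, and the second gene was newly tested. In the remaining fits with 2, the second gene was Dmxl1. Proximal tubule markers called higher numbered 1 with the replicate block in place of 0, and those called lower 4 with quality weights in place of 2. Osteoclast markers called lower numbered 1 with DESeq2 and 1 with quality weights in place of 0. The log2 fold change of Atp6v1f, not called, turned from -0.20 to 0.0727 with quality weights, 0.0734 without normal kidney 9 (range over leave-one-out fits -0.2495 to 0.0734) and 0.11 without both libraries. Without length correction the median shares in normal kidneys were 31.8% for Atp6v0d2, 25.0% for Atp6v1g3 and 17.7% for Atp6v1c2. Apart from the change of scale itself and the genes newly let through the filter, the cause of these changes was not tested.

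Tumors and kidneys share the numbers 1 to 10, which the labels do not tie to a mouse. Deviations of same-numbered libraries correlated over 0.1 in 9 of 10 pairs and at -0.143 in pair 9, and 8 of 10 tumors correlated best with their own number. Over all genes, with the replicate block, 3979 genes were called higher and 3886 lower in place of 3631 and 3661. The members stayed at 5 higher and 5 lower, and of the other V-ATPase genes only Ncoa7 changed its call, to higher (log2 0.32, adjusted p = 0.0379).

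Depth limits Atp6v1b1, Atp6v1c2 and Atp6v1g3 in tumors, where most libraries held under 10 counts, so the size of their folds is loosely set. Bulk tissue cannot assign any isoform to a cell type.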
